A study of Mus musculus with 2 samples.

Results

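The 81 genes described here encode enzymes, other than cytochromes P450, that oxidise, reduce, hydrolyse or conjugate foreign compounds and reactive aldehydes. They were taken by gene name from the 17943 genes of a lung expression table, with earlier results of these data known. The families are flavin monooxygenases (Fmo), carbonyl reductases (Cbr), aldehyde dehydrogenases (Aldh), aldehyde oxidases (Aox), carboxylesterases (Ces), epoxide hydrolases (Ephx), soluble and microsomal glutathione S-transferases (Gst and Mgst), sulfotransferases (Sult) and UDP-glucuronosyltransferases (Ugt). The names do not all stand for xenobiotic enzymes, because the Aldh prefix also takes in enzymes of amino acid and folate metabolism. RNA came from lung tissue of wild-type C57BL/6 mice, a common inbred strain kept free of specific pathogens, aged 6 to 8 weeks and given an adenovirus through the nose over 3 days. In one library the virus carried interleukin 17B, a secreted cytokine of the IL-17 family (Adv-IL-17B, n = 1 library), and in the other the mice received the adenovirus Adv-EV, whose abbreviation the labels do not spell out (n = 1 library). The mice of both libraries were therefore exposed to adenovirus, and no uninfected lung was analysed here. The comparison asks which of these genes differ in lung given IL-17B.

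Xenobiotic metabolism runs in steps: oxidases, reductases and hydrolases expose or create a reactive group, and transferases then attach glutathione, sulfate or glucuronic acid so that the product can leave the cell. Aldehyde dehydrogenases also clear aldehydes from lipid peroxidation, and some of them make retinoic acid from retinaldehyde. In lung much of this capacity sits in the secretory club cells of the airway and in alveolar type 2 cells.

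Il17b itself stood at 93.2 FPKM in Adv-IL-17B lung and was listed at 0 in Adv-EV lung. FPKM are fragment numbers scaled to transcript length and library total, so levels of different genes can be compared per length. Lung markers were abundant, with the club cell gene Scgb1a1 at 26446 FPKM in Adv-IL-17B and 37109 FPKM in Adv-EV and the alveolar type 2 gene Sftpc at 11922 FPKM in Adv-IL-17B and 20844 FPKM in Adv-EV. Steps in the low values placed the depth near 5519000 fragments in Adv-IL-17B and 5501000 in Adv-EV. With 1 library per group no difference has a replicate check and no test was run. The design text speaks of triplicates, and no source used here says whether a library pools several mice. All intervals are exact Clopper-Pearson 95% intervals on estimated fragments which take in counting error and nothing of the spread between mice or preparations. Folds with an interval are plain ratios of FPKM, and log2 ratios are of FPKM + 0.1, Adv-IL-17B over Adv-EV. In bulk tissue, fewer cells of a type and less RNA per cell cannot be told apart.

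Most of these enzyme genes stood lower in the Adv-IL-17B library. Summed over the 81 genes, their level was 4228 FPKM in Adv-IL-17B and 7127 FPKM in Adv-EV (ratio 0.593), while the whole table summed to 547075 FPKM in Adv-IL-17B and 539847 FPKM in Adv-EV. Without Cbr2, the most abundant member, the sums were 2346 FPKM in Adv-IL-17B and 3267 FPKM in Adv-EV (ratio 0.718). Over both libraries 66 members averaged 0.5 FPKM or more and are called measured, and 45 of them (68.2%) had a log2 ratio below 0, against 50.8% of all 15056 measured genes. The members' median log2 ratio was -0.29, and that of all measured genes was -0.01. Past 2-fold on that log2 scale, 7 members were lower, against 2.68% of measured genes, and 4 were higher, against 3.95%. These 11 of 66 measured members stand beside 6.63% of measured genes past that fold in either direction. At least 1.5-fold lower, with a counting interval that left out equal levels, were 16 members, against 5.06% of measured genes. In the other direction 2 members met that rule, against 6.58% of measured genes.

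**Figure D1:**
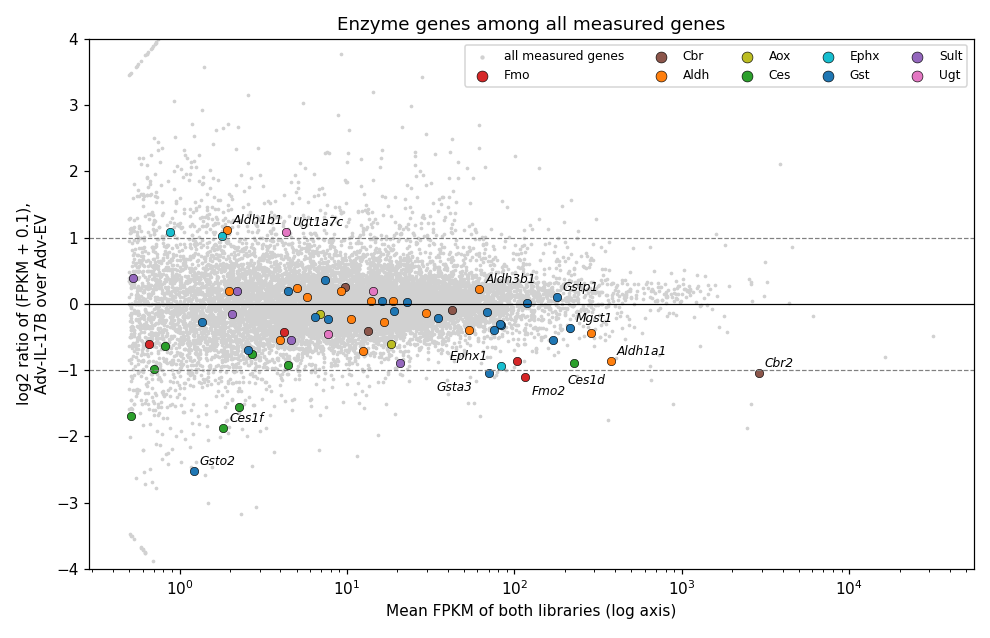
Log2 ratio of FPKM + 0.1 (Adv-IL-17B over Adv-EV) plotted against the mean FPKM of both libraries on a log axis, with all measured genes in grey and 65 of the 66 measured enzyme genes coloured by family. The dashed lines mark the 2-fold rule, 134 genes lie beyond the plotted range of -4 to 4, and Cbr2, the rightmost coloured point, lies just below the lower dashed line, as Fmo2 and Gsta3 do further left.

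Lower members were found at every level of expression. Of 23 members that averaged 20 FPKM or more, 8 were at least 1.5-fold lower (34.8%), against 2.82% of the 4251 genes at that level, and 0 were at least 1.5-fold higher, against 7.22%. Between 2 and 20 FPKM, 7 of 31 members were at least 1.5-fold lower (22.6%), against 7.17% of genes at that level, and 1 was higher by that fold, against 7.5% of genes. Below 2 FPKM, where a few fragments decide a ratio, 6 of 12 members were at least 1.5-fold lower, against 22.6% of genes at that level, and 3 were higher by that fold, against 19.1% of genes. The 16 members that met the 1.5-fold rule with their interval came from 8 of the 9 families, all except Ugt. The sums of oxidases, reductases and hydrolases were 3103 FPKM in Adv-IL-17B and 5767 FPKM in Adv-EV (ratio 0.538), or 1221 FPKM in Adv-IL-17B and 1907 FPKM in Adv-EV without Cbr2 (ratio 0.64). Those of transferases were 1126 FPKM in Adv-IL-17B and 1360 FPKM in Adv-EV (ratio 0.828).

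**Figure D2:**
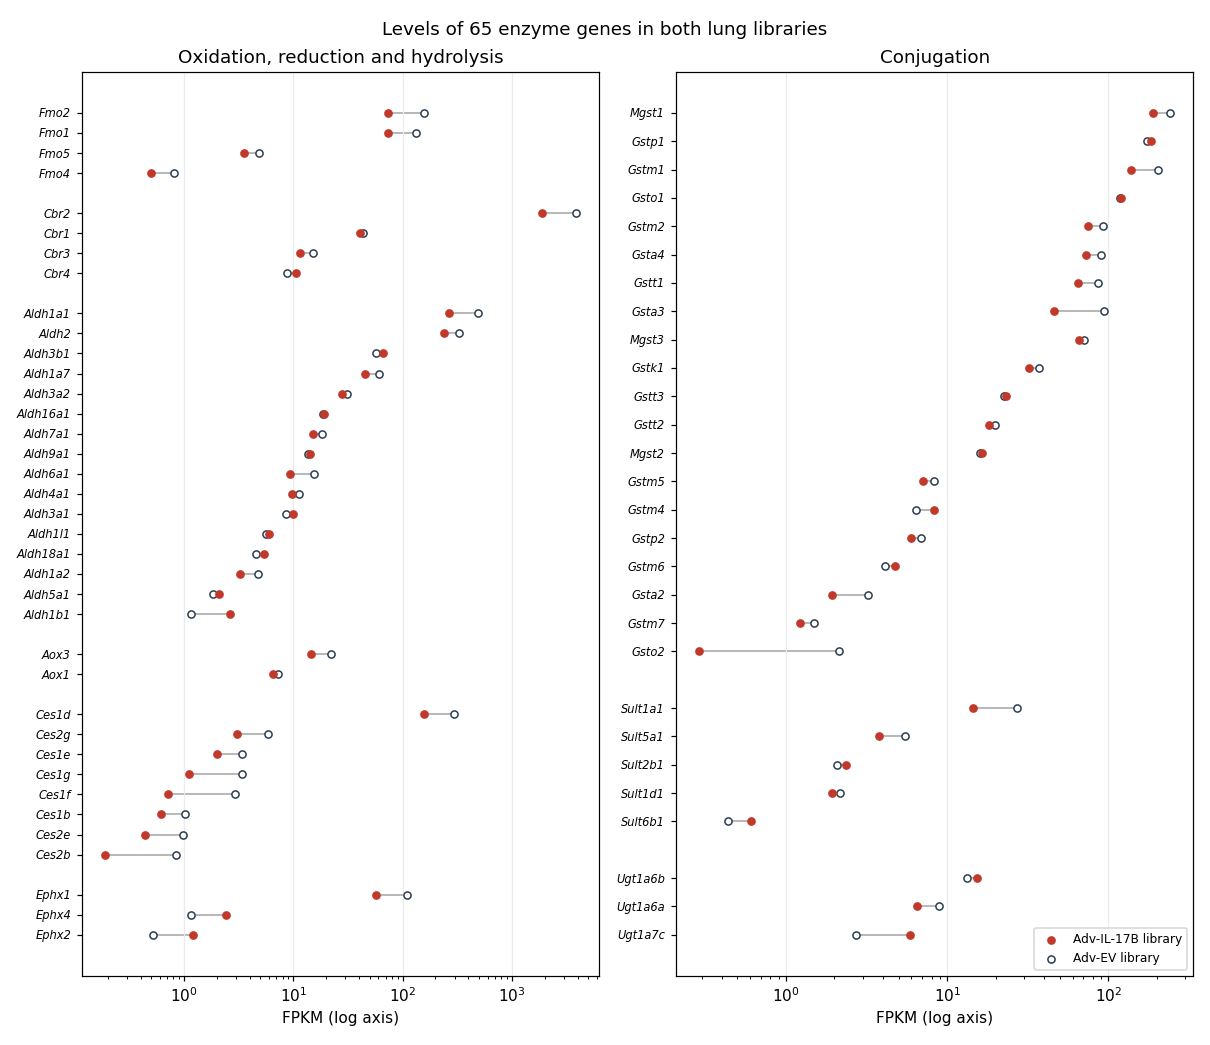
FPKM of 65 of the 66 measured enzyme genes on a log axis, filled points for the Adv-IL-17B library and open points for the Adv-EV library, grouped by family from top to bottom. All plotted Fmo and Ces genes have their filled point to the left, at the lower level, while the Aldh genes below Aldh1a1 and Aldh2 are mixed.

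Promoter sequence was searched for sites that regulators of these enzymes are known to bind: TGACNNNGC, the core of the antioxidant response element used by NRF2, and GCGTG, the core that the aryl hydrocarbon receptor binds. RefSeq promoters of 300 bases (build GRCm38.p6, from 250 bases before to 50 after a start site) were given for 64 of the 81 genes, and both strands were read with overlapping matches of both motifs counted. The first motif was in 6 of 68 promoters of measured members (8.82%), against 12.4% of all 32851 promoters and 14.4% of promoters of measured genes. The second was in 19 of the 68 (27.9%), against 32.4% of all promoters and 47.7% of those of measured genes. Members that were at least 1.5-fold lower with their interval had 15 promoters from 11 genes, of which 1 held the first motif and 2 the second. Others of these members, among them Fmo1 and Ces1d, had no promoter given and were not searched. The promoters of 3 of these members that are abundant, and of Gstp1 as an abundant gene of nearly equal level, are shown with matches in capitals. For a gene with several promoters the most upstream is shown. Aldh1a1 had a further one at chr19:20601718-20602017, which is not shown and held neither motif. A match is a description of letters, and a promoter without one lacks only these letters in this window.
Cbr2: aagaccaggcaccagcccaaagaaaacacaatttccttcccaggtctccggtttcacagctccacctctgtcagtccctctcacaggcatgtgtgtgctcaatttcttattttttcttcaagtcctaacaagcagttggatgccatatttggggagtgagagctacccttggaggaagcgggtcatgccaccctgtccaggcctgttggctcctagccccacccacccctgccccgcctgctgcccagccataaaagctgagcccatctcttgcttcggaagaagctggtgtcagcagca
Aldh1a1: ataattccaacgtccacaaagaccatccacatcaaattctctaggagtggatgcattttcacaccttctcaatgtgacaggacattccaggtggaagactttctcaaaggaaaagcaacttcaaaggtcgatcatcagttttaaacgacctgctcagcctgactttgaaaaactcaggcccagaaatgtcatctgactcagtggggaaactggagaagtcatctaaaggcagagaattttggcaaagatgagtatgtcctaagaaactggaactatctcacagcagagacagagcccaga
Gsta3: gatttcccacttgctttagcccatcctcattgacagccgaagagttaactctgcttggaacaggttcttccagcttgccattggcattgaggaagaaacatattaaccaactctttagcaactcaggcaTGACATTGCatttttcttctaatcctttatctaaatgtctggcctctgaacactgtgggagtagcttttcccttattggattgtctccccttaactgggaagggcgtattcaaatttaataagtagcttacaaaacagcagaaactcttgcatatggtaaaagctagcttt
Gstp1: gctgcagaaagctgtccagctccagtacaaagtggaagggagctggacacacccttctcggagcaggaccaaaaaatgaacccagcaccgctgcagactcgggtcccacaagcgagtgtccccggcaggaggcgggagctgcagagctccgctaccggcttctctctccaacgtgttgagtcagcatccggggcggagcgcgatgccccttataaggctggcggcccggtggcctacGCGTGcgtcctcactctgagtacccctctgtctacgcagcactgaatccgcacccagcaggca
They lie at chr11:120731972-120732271, minus strand, chr19:20492333-20492632, plus strand, chr1:21240335-21240634, plus strand and chr19:4037863-4038162, minus strand, each printed along its gene's strand. The capitals in Gsta3 mark the first motif and those in Gstp1 the second, while the windows of Cbr2 and Aldh1a1 held neither.

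Flavin monooxygenases, which oxidise nitrogen and sulfur atoms of drugs and diet-derived amines, had a log2 ratio below 0 in all 5 measured members. Fmo2, known as the lung form in many mammals, stood at 73.6 FPKM in Adv-IL-17B and 158 FPKM in Adv-EV (2.15-fold lower, interval 2.03 to 2.28). Fmo1 stood at 73.0 FPKM in Adv-IL-17B and 133 FPKM in Adv-EV (1.83-fold lower, interval 1.69 to 1.98). Both abundant members were thus lower, with Fmo2 at the larger fold. Fmo5, on another chromosome, stood at 3.57 FPKM in Adv-IL-17B and 4.86 FPKM in Adv-EV (1.36-fold lower, interval 1.05 to 1.78). Fmo4 rested on 5 fragments (0.50 FPKM) in Adv-IL-17B and 8 (0.81 FPKM) in Adv-EV, and its interval included equal levels. Fmo6, under the filter, was at 0.38 FPKM in Adv-IL-17B and 0.10 FPKM in Adv-EV.

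Among the carbonyl reductases, which reduce ketones and quinones to alcohols, the lung enzyme gene stood apart from its relatives. Cbr2, a mitochondrial carbonyl reductase abundant in mouse lung, stood at 1882 FPKM in Adv-IL-17B and 3860 FPKM in Adv-EV (2.05-fold lower, interval 2.006 to 2.10), and its promoter window above held neither motif. Cbr1, the widely expressed cytosolic form, stood at 41.1 FPKM in Adv-IL-17B and 43.8 FPKM in Adv-EV (1.06-fold lower, interval 0.901 to 1.26). Cbr3, its neighbour on chromosome 16, stood at 11.4 FPKM in Adv-IL-17B and 15.2 FPKM in Adv-EV, and Cbr4, a reductase of mitochondrial fatty acid synthesis, at 10.6 FPKM in Adv-IL-17B and 8.84 FPKM in Adv-EV. The counting intervals of Cbr1, Cbr3 and Cbr4 included equal levels.

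Aldehyde dehydrogenases were mixed, with 8 of 16 measured members below 0 and a median log2 ratio of -0.05, close to that of all genes. The lower ones were led by the most abundant. Aldh1a1, which makes retinoic acid and clears lipid aldehydes, stood at 266 FPKM in Adv-IL-17B and 486 FPKM in Adv-EV (1.83-fold lower, interval 1.75 to 1.92). Its tandem neighbour Aldh1a7 stood at 45.7 FPKM in Adv-IL-17B and 60.6 FPKM in Adv-EV (1.32-fold lower). Aldh1a2, the main retinaldehyde dehydrogenase of the embryo, stood at 3.24 FPKM in Adv-IL-17B and 4.76 FPKM in Adv-EV, with an interval that included equal levels, and Aldh1a3 was under the filter at 0.57 FPKM in Adv-IL-17B and 0.42 FPKM in Adv-EV. Together the 4 Aldh1a genes summed to 315.1 FPKM in Adv-IL-17B and 552.0 FPKM in Adv-EV. Aldh2, the mitochondrial enzyme that clears acetaldehyde, stood at 242 FPKM in Adv-IL-17B and 329 FPKM in Adv-EV (1.36-fold lower, interval 1.31 to 1.41).

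Most other aldehyde dehydrogenases had smaller differences, with Aldh6a1 and Aldh1b1 as exceptions in opposite directions. The Aldh3 genes, which act on fatty and aromatic aldehydes, summed to 104.8 FPKM in Adv-IL-17B and 96.6 FPKM in Adv-EV, with Aldh3b1 at 66.6 FPKM in Adv-IL-17B and 56.8 FPKM in Adv-EV (1.17-fold higher, interval 1.05 to 1.31). The 6 members of amino acid and related metabolism (Aldh4a1, Aldh5a1, Aldh6a1, Aldh7a1, Aldh9a1 and Aldh18a1) had 3 log2 ratios below 0 and 3 above, and Aldh4a1 shares 45.0% of its 50-base windows with a gene listed as Gm21969. Of these, Aldh6a1, a mitochondrial enzyme of valine breakdown, stood at 9.42 FPKM in Adv-IL-17B and 15.5 FPKM in Adv-EV (1.64-fold lower, interval 1.36 to 1.99). Aldh7a1, which breaks down lysine, stood at 15.1 FPKM in Adv-IL-17B and 18.3 FPKM in Adv-EV (1.22-fold lower, interval 1.05 to 1.41). Aldh1b1, a mitochondrial relative of Aldh2, went the other way, at 2.64 FPKM in Adv-IL-17B and 1.17 FPKM in Adv-EV (2.26-fold higher, interval 1.16 to 4.35). It rested on 33 fragments in Adv-IL-17B and 15 in Adv-EV. The remaining measured members Aldh16a1, Aldh1l1, Aldh3a1 and Aldh3a2 had log2 ratios of 0.04, 0.10, 0.19 and -0.14. Aldh1l2 and Aldh3b2 were under the filter.

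Aldehyde oxidases are molybdenum enzymes that oxidise aldehydes and nitrogen heterocycles. Aox3 stood at 14.5 FPKM in Adv-IL-17B and 21.97 FPKM in Adv-EV (1.52-fold lower, interval 1.33 to 1.74). Aox1, the next gene on chromosome 1, stood at 6.53 FPKM in Adv-IL-17B and 7.27 FPKM in Adv-EV (1.11-fold lower, interval 0.897 to 1.39). Aox2 and Aox4 were listed at 0 in Adv-IL-17B and at 0.04 FPKM each in Adv-EV, which is about 1 fragment.

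Carboxylesterases, which split ester drugs and neutral lipids, had a log2 ratio below 0 in all 8 measured members, with a median of -0.95. Ces1d, by far the most abundant and also a triacylglycerol hydrolase, stood at 158 FPKM in Adv-IL-17B and 294 FPKM in Adv-EV (1.86-fold lower, interval 1.75 to 1.97). Ces2g stood at 3.06 FPKM in Adv-IL-17B and 5.86 FPKM in Adv-EV (1.92-fold lower, interval 1.34 to 2.79). Larger ratios came from genes of few fragments. Ces1g stood at 1.10 FPKM in Adv-IL-17B and 3.42 FPKM in Adv-EV (3.11-fold lower, interval 1.74 to 6.36), and Ces1f at 0.72 FPKM in Adv-IL-17B and 2.91 FPKM in Adv-EV (4.04-fold lower, interval 1.75 to 9.79). Ces2b rested on 4 fragments and 0.19 FPKM in Adv-IL-17B and on 16 fragments and 0.84 FPKM in Adv-EV (4.42-fold lower, interval 1.295 to 16.5). The intervals of Ces1b, Ces1e and Ces2e included equal levels. Under the filter, Ces2c was listed at 0 in Adv-IL-17B, where a 0 allows up to 0.276 FPKM, and at 0.42 FPKM in Adv-EV. Ces2d-ps, named as a pseudogene, was at 0.31 FPKM in Adv-IL-17B and Ces1c at 0.22 FPKM in Adv-IL-17B, and both were listed at 0 in Adv-EV.

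The epoxide hydrolases open reactive epoxides with water, and their members split. Ephx1, the microsomal enzyme that acts on epoxides of drugs and aromatic hydrocarbons, stood at 57.3 FPKM in Adv-IL-17B and 110 FPKM in Adv-EV (1.92-fold lower, interval 1.73 to 2.13). Ephx4 stood at 2.44 FPKM in Adv-IL-17B and 1.15 FPKM in Adv-EV (2.12-fold higher, interval 0.866 to 5.67). Ephx2, the soluble hydrolase of fatty acid epoxides, stood at 1.22 FPKM in Adv-IL-17B and 0.52 FPKM in Adv-EV on 14 fragments in Adv-IL-17B and 6 in Adv-EV. The intervals of Ephx4 and Ephx2 included equal levels, so the family's median log2 ratio of 1.02 rests on those sparse genes while its sum, set by Ephx1, was 61.0 FPKM in Adv-IL-17B and 112.2 FPKM in Adv-EV. Ephx3 was listed at 0 in Adv-IL-17B, where a 0 allows up to 0.225 FPKM, and at 0.74 FPKM on about 10 fragments in Adv-EV, which put its mean under the filter.

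**Figure D3:**
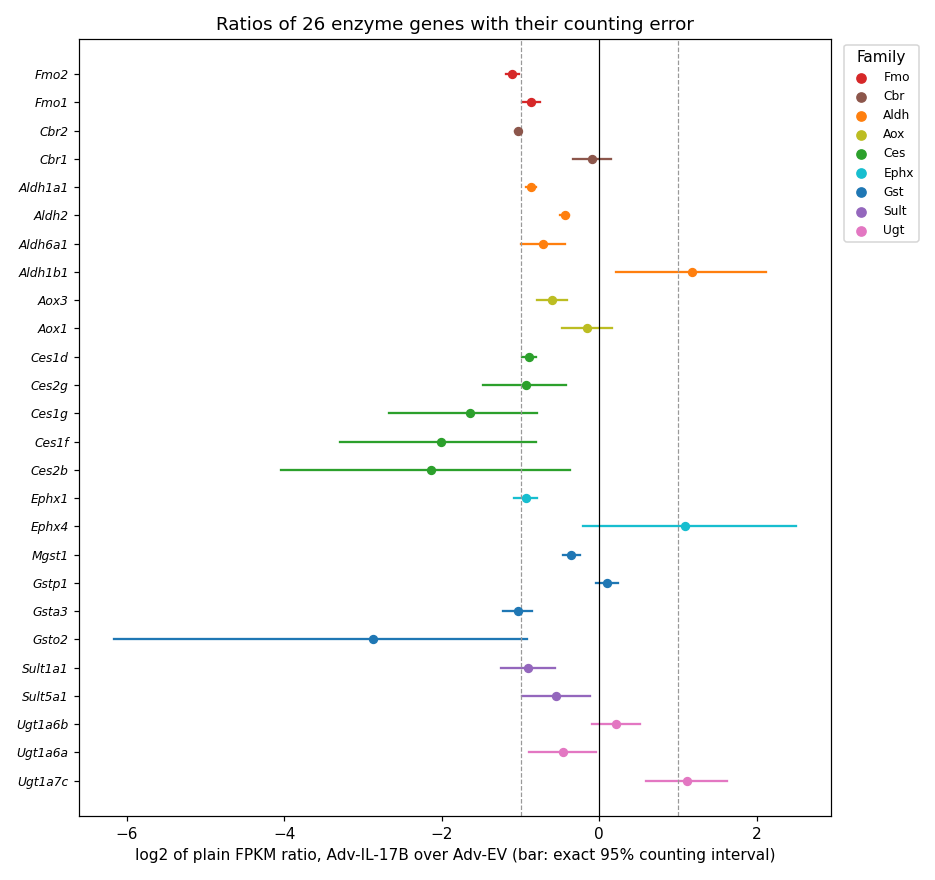
Log2 of the plain FPKM ratio (Adv-IL-17B over Adv-EV) of 26 enzyme genes, from the most abundant pair of each family and the genes at least 1.5-fold apart with an interval that leaves out equal levels. Points are ratios and bars exact 95% counting intervals, dashed lines mark 2-fold, and the bars of abundant genes such as Cbr2 and Aldh1a1 are narrow while that of Gsto2 spans 1.89-fold to 72.0-fold lower.

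Glutathione S-transferases with the microsomal forms, the largest group with 20 measured members, were for the most part closer to equal, with a median log2 ratio of -0.22 and sums of 1075 FPKM in Adv-IL-17B and 1297 FPKM in Adv-EV. Gsta3, of the alpha class that conjugates lipid peroxidation products and carcinogen epoxides, had the largest fold among the abundant ones. It stood at 45.9 FPKM in Adv-IL-17B and 94.3 FPKM in Adv-EV (2.06-fold lower, interval 1.81 to 2.33), and is the one lower member whose printed window holds TGACNNNGC. Its relative Gsta4, the hydroxynonenal transferase, stood at 73.0 FPKM in Adv-IL-17B and 90.4 FPKM in Adv-EV (1.24-fold lower). Counting intervals of Gsta3 and Gsta4 did not overlap. Gsta2, which shares 64.2% of its 50-base windows with other genes, was at 1.94 FPKM in Adv-IL-17B and 3.21 FPKM in Adv-EV, with an interval that included equal levels. In the mu class Gstm1, a broad xenobiotic transferase, stood at 139 FPKM in Adv-IL-17B and 203 FPKM in Adv-EV (1.46-fold lower, interval 1.35 to 1.59), with 23.1% of its windows shared with other genes, and Gstm2 at 74.3 FPKM in Adv-IL-17B and 92.9 FPKM in Adv-EV. Gstm4, Gstm5, Gstm6 and Gstm7, below 9 FPKM in both libraries, had intervals that included equal levels, and Gstm3 was under the filter.

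The measured pi, omega, theta, kappa and microsomal forms lay inside 1.5-fold apart from the sparse omega gene Gsto2. Gstp1, the pi class enzyme of airway epithelium, stood at 185 FPKM in Adv-IL-17B and 173 FPKM in Adv-EV (1.07-fold higher, interval 0.968 to 1.18). The near-identical Gstp2 (5.97 FPKM in Adv-IL-17B and 6.85 FPKM in Adv-EV) shares 64.3% of its 50-base windows with Gstp1, so the split of reads between both is uncertain. Gsto1, an omega class enzyme that reduces dehydroascorbate, was nearly equal at 120 FPKM in Adv-IL-17B and 118 FPKM in Adv-EV. Its tandem neighbour Gsto2 rested on 2 fragments and 0.29 FPKM in Adv-IL-17B and on 16 fragments and 2.13 FPKM in Adv-EV (7.35-fold lower, interval 1.89 to 72.0). Mgst1, the membrane-bound transferase and lipid peroxidase, stood at 188 FPKM in Adv-IL-17B and 241 FPKM in Adv-EV (1.28-fold lower, interval 1.19 to 1.38). Mgst2, which can also make leukotriene C4, and its relative Mgst3 had log2 ratios of 0.05 and -0.12. Gstt1 stood at 64.7 FPKM in Adv-IL-17B and 85.6 FPKM in Adv-EV, whereas Gstt2, Gstt3 and Gstk1 had intervals that included equal levels. Gstt4, under the filter, was at 0.38 FPKM in Adv-IL-17B and listed at 0 in Adv-EV.

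Of the sulfotransferases, Sult1a1, the main phenol sulfotransferase, stood at 14.4 FPKM in Adv-IL-17B and 26.97 FPKM in Adv-EV (1.87-fold lower, interval 1.47 to 2.38). Sult5a1 stood at 3.76 FPKM in Adv-IL-17B and 5.50 FPKM in Adv-EV (1.46-fold lower, interval 1.09 to 1.97). Sult1d1, Sult2b1 and Sult6b1 lay below 2.5 FPKM in both libraries with intervals that included equal levels, and Sult4a1 was at 0.07 FPKM in both. The glucuronosyltransferases were the only family whose sum was higher in Adv-IL-17B, at 27.9 FPKM against 25.3 FPKM in Adv-EV. Ugt1a7c stood at 5.88 FPKM in Adv-IL-17B and 2.73 FPKM in Adv-EV (2.15-fold higher, interval 1.51 to 3.06). Ugt1a6b stood at 15.4 FPKM in Adv-IL-17B and 13.4 FPKM in Adv-EV (1.15-fold higher, interval 0.936 to 1.43), and Ugt1a6a at 6.48 FPKM in Adv-IL-17B and 8.95 FPKM in Adv-EV (1.38-fold lower, interval 1.03 to 1.86). These genes are alternative first exons spliced to common last exons, and between 40.9% and 100% of their 50-base windows are shared, so the values of single Ugt1a genes are uncertain. Ugt1a1 and Ugt1a10 were under the filter.

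Many members lie in tandem clusters, and the clusters differed in how alike their genes were. In mm10, the Fmo cluster on chromosome 1 held 4 measured genes with log2 ratios from -1.10 to -0.60. The Ces1 cluster on chromosome 8 (93056725 to 93337209) held 5 measured genes from -1.88 to -0.64, and the Ces2 cluster of that chromosome (104828494 to 104969537) 3 from -1.70 to -0.92. In these 3 clusters all measured genes had a log2 ratio below 0, against 50.8% of all measured genes. The same held for the 2 measured genes in each of 4 smaller clusters: Aox1 with Aox3, Cbr1 with Cbr3, Aldh1a1 with Aldh1a7, and Gsta4 with Gsta2. With 50.8% of all measured genes below 0, 2 genes of 1 sign say little. The Gstm cluster on chromosome 3 (107895854 to 108045179) had 4 measured genes below 0 and 2 above, from -0.55 to 0.36, and the Gstt cluster on chromosome 10 2 below and 1 above. All remaining clusters were mixed as well. Measured genes ranged from -0.46 to 1.08 in the Ugt1a cluster and from -2.52 to 0.02 in Gsto1 with Gsto2. Aldh9a1 with Mgst3, Aldh3a1 with Aldh3a2, and Aldh3b1 with Gstp1 and Gstp2 also had genes on both sides of 0. Of 66 measured members, 48 shared at most 5% of their 50-base windows with other genes, among them Fmo2, Ces1d and Ephx1, while Cbr2 shared 15.1% with a gene listed as Gm11771 and Aldh1a1 7.53% with Aldh1a7.

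A list of 16 measured genes of glutathione turnover and of the supply and removal of sulfate and glucuronide groups had 12 log2 ratios above 0, 3 below and a median of 0.10. None (0 of 16) was past the 2-fold rule, against 6.63% of measured genes. Gsr, which regenerates glutathione, stood at 48.7 FPKM in Adv-IL-17B and 34.8 FPKM in Adv-EV (1.40-fold higher, interval 1.25 to 1.57). Gss, glutathione synthetase, stood at 14.3 FPKM in Adv-IL-17B and 19.4 FPKM in Adv-EV (1.36-fold lower, interval 1.09 to 1.68). The largest ratio in the list was that of Gusb, a lysosomal enzyme that removes glucuronic acid, at 46.6 FPKM in Adv-IL-17B and 31.3 FPKM in Adv-EV (1.49-fold higher, interval 1.32 to 1.68). Of 17 measured xenobiotic sensors and factors, 0 were past the rule and the median log2 ratio was -0.06, with 7 above 0 and 10 below. The largest ratio among them was that of Cebpb, at 217 FPKM in Adv-IL-17B and 126 FPKM in Adv-EV (1.72-fold higher, interval 1.59 to 1.86). The NRF2 gene Nfe2l2 stood at 75.2 FPKM in Adv-IL-17B and 77.6 FPKM in Adv-EV. The aryl hydrocarbon receptor gene Ahr stood at 10.3 FPKM in Adv-IL-17B and 12.8 FPKM in Adv-EV (1.24-fold lower, interval 1.07 to 1.44). The lists of transporters (14 measured, median log2 ratio 0.07) and of retinoic acid handling (11 measured, median -0.25) also had 0 genes past the rule.

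Other conjugating and redox enzymes, 40 measured, had a median log2 ratio of -0.17. By the rule 4 were lower, against 2.68% of measured genes, and 2 were higher, against 3.95%. The lower ones were the P450 genes Cyp2a5, Cyp1a1 and Cyp2e1 and the methyltransferase gene Inmt, at 405 FPKM in Adv-IL-17B and 901 FPKM in Adv-EV (2.22-fold lower, interval 2.12 to 2.34). Cyp2a5 and Inmt, and from the rest of this list Cyp2f2 and Pon1, are also in the lists of cell markers below. Cyp1a1 stood at 6.16 FPKM in Adv-IL-17B and 17.5 FPKM in Adv-EV (2.84-fold lower). The higher ones were Akr1c12, an aldo-keto reductase gene with an interval that included equal levels, and the P450 gene Cyp1b1, at 4.01 FPKM in Adv-IL-17B and 1.66 FPKM in Adv-EV (2.42-fold higher).

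**Figure D4:**
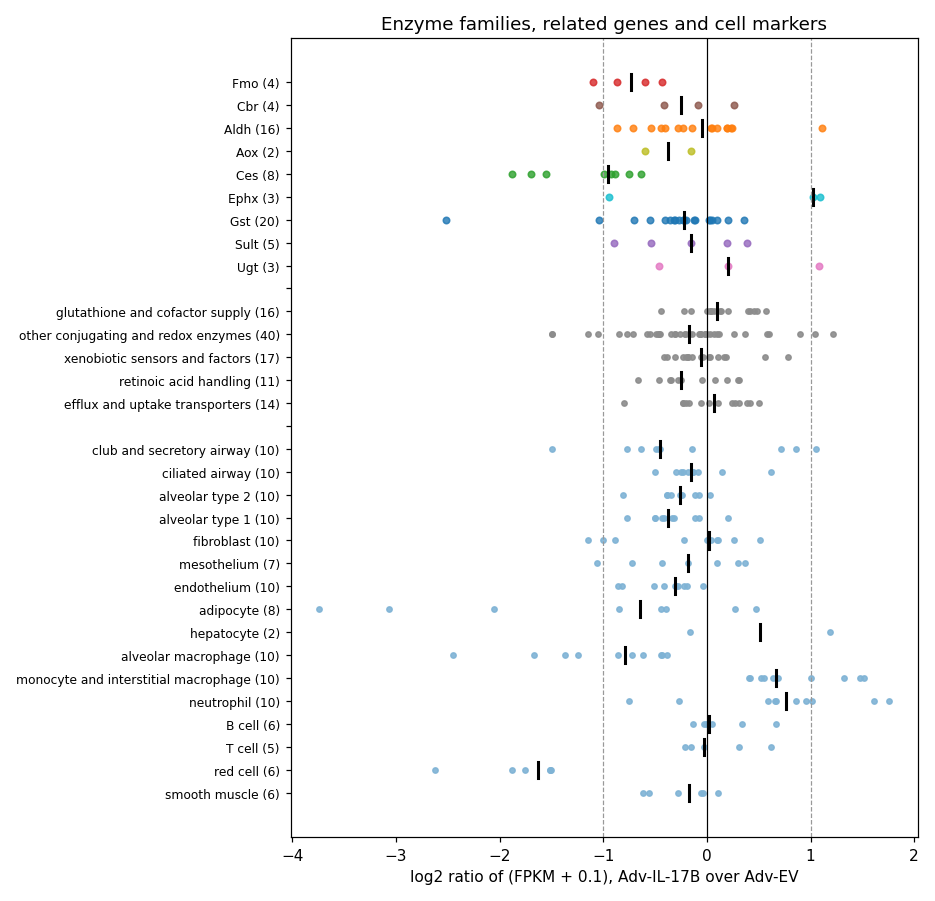
Log2 ratio of FPKM + 0.1 (Adv-IL-17B over Adv-EV) of measured genes (1 enzyme gene is not plotted), with black bars for medians of the plotted genes, for the 9 enzyme families, 5 lists of related genes in grey and 16 lists of cell markers in blue. Numbers of measured genes are in brackets, dashed lines mark 2-fold, and the Ces median of -0.95 lies left of the club cell list at -0.46 and the alveolar type 2 list at -0.25.

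Markers of the airway and alveolar cells in which many of these enzymes are known also stood lower. Of 10 club and secretory airway markers 7 had a log2 ratio below 0, with 0 listed at 0, and their sums were 28448 FPKM in Adv-IL-17B and 39918 FPKM in Adv-EV (ratio 0.713). Within that list Scgb1a1 was 1.40-fold lower (interval 1.39 to 1.42) and Cyp2f2 1.71-fold lower (interval 1.65 to 1.76), while Bpifa1, Muc5b and Scgb3a1, which are secreted defence genes, were higher. The other lower markers were Cyp2a5 (2.84-fold, interval 2.08 to 3.94), Scgb3a2 (1.56-fold), Pon1 (1.38-fold), Cldn10 (1.37-fold) and Lypd2 (1.10-fold). The interval of Lypd2 included equal levels. Cyp2f2, Cyp2a5 and Pon1 are themselves enzyme genes of the list of other conjugating and redox enzymes, so the club list is not independent of it. Apart from them, Scgb1a1, Scgb3a2, Cldn10 and Lypd2 were lower and Bpifa1, Muc5b and Scgb3a1 higher. Of 10 alveolar type 2 markers 9 were below 0 (sums 16869 FPKM in Adv-IL-17B and 26398 FPKM in Adv-EV). Sftpc carried most of that difference, and the other 9 summed to 4946 FPKM in Adv-IL-17B and 5554 FPKM in Adv-EV (ratio 0.89). All 10 endothelial markers were below 0, with a median log2 ratio of -0.31. All 10 alveolar macrophage markers were below 0 (sums 295.3 FPKM in Adv-IL-17B and 467.2 FPKM in Adv-EV). Car4, at 81.6 FPKM in Adv-IL-17B and 147.9 FPKM in Adv-EV, is in both of these lists, so they are not independent. Ciliated cell markers had a median log2 ratio of -0.16, alveolar type 1 markers -0.38, mesothelial markers -0.18 and smooth muscle markers -0.17. The median of fibroblast markers was 0.02, and their genes divided: the alveolar fibroblast genes Inmt, Npnt and Tcf21 were 2.22-fold, 2.01-fold and 1.86-fold lower, while the collagen gene Col3a1 was 1.43-fold higher.

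Several blood cell lists stood further from equal, while the B cell and T cell lists had median log2 ratios of 0.02 and -0.03. Neutrophil markers (8 of 10 above 0, sums 648.8 FPKM in Adv-IL-17B and 386.8 FPKM in Adv-EV) and markers of monocytes and interstitial macrophages (10 of 10 above 0, sums 3193 FPKM in Adv-IL-17B and 2115 FPKM in Adv-EV) were higher, and the 6 measured red cell markers were lower (sums 3040 FPKM in Adv-IL-17B and 9606 FPKM in Adv-EV). Of 8 measured adipocyte markers, 3 were lower past the rule, against 2.68% of measured genes. These were Cidec, Adrb3 and Retn, the last listed at 0 in Adv-IL-17B and at 1.24 FPKM in Adv-EV. By sign, 6 of the 8 were below 0 and 2 above, with Lipe 1.39-fold higher (interval 1.19 to 1.62). The list sums were 39.5 FPKM in Adv-IL-17B and 47.3 FPKM in Adv-EV. The defining gene Adipoq, under the filter, was at 0.29 FPKM in Adv-IL-17B and 0.59 FPKM in Adv-EV, with an interval that included equal levels. The liver-defining gene Alb was at 0.09 FPKM in Adv-IL-17B and 0.26 FPKM in Adv-EV, Serpina1a and Tat were listed at 0 in Adv-IL-17B, and the whole list of hepatocyte markers in the table summed to 6.4 FPKM in Adv-IL-17B and 4.9 FPKM in Adv-EV, far below the levels of the abundant enzyme genes. The part of these cell types in the enzyme ratios was not tested.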

How the data were processed

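The authors deposited 1 table of FPKM values, per the file headers, with 1 column per library (Adv-IL-17B and Adv-EV) rounded to 2 decimals. Bowtie2, HISAT and the build mm10 are named in the submitters' processing notes. The step to FPKM, its annotation, filters and strand handling were not given in the sources used here. An FPKM is relative to the library total, so abundant genes can shift others, and reads of paralogs may be split.

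Members were taken by symbol, and samples were grouped by their titles. The members and lists were chosen with earlier results of these data known. Log2 ratios are log2(FPKM + 0.1), Adv-IL-17B minus Adv-EV, over genes averaging 0.5 FPKM or more. The pseudocount makes them understate differences of low genes. With 1 library per group no test was run, and calls follow the 2-fold rule of size.

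Transcript lengths from GENCODE M21 (same assembly as mm10) covered 17632 genes (98.3%) and all 81 members, and the longest transcript was used. FPKM times length fell on whole steps of 0.1812 FPKM per kilobase in Adv-IL-17B and 0.1818 in Adv-EV, with 82.1% of 1123 low values in Adv-IL-17B and 83.0% of 1148 in Adv-EV within 0.2 of a whole number. Fragments derived from these steps summed over genes to 6030193 in Adv-IL-17B and 5996696 in Adv-EV, above the estimated library totals, so they are approximate. They served for intervals and for floors of 3 fragments only. The step search and intervals were tested on simulated data.

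Full statistics were given for the most abundant pair of measured genes of each family and for genes at least 1.5-fold apart whose interval left out equal levels. Shared sequence is the share of a transcript's 50-base windows found in other GENCODE genes, as the read length is not given. Alternatives were other pseudocounts, filters, scalings and size rules. For 1 enzyme gene, counted in all totals, values are not reported here. Positions came from RefSeq (GRCm38.p6, the assembly of mm10). Python 3.11.15, pandas 2.3.3, scipy 1.17.1 and matplotlib 3.10.9 were used.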

Additional observations from a re-analysis of the deposited data

How the results depend on the processing

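All 27 genes with full statistics kept the sign of their log2 ratio under each pseudocount and scaling tried, as did the 22 of them that remain at a mean of at least 2 FPKM, and 1 left its counting interval: Cbr2, at -1.09 after rescaling to the upper quartile. The 2-fold counts depended on sparse genes. Higher members numbered 4, but 0 with a pseudocount of 1 FPKM, 9 with no filter, 1 at a mean of at least 2 FPKM and 2 where the counting interval also had to leave out equal levels. Lower members numbered 7, but 11 with no filter, 4 at a mean of at least 2 FPKM and 21 with a 1.5-fold rule. Of the family medians, Ces was -0.69 and Ephx 0.55 with a pseudocount of 1 FPKM, and Aox was -0.49 and Ephx 0.04 with no filter. At a mean of at least 2 FPKM, Aldh was -0.18, Sult -0.35 and Ephx -0.94, a reversal from 1.02, because that filter leaves out Ephx2 and Ephx4 and leaves Ephx1 alone. A log2 ratio above 0 was found in 21 of 66 members, and in 17 of 66 after rescaling to the upper quartile. The numbers were 16 of 54 at a mean of at least 2 FPKM and 28 of 81 with no filter. A minimum of 20 estimated fragments, chosen after seeing the data, left 4 members higher and 6 lower by 2-fold. No paired analysis was possible because each group has 1 library. With 1 library per group no replicate could be left out, and the counting intervals show only what depth limits.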
